A study of Oryctolagus cuniculus with 4 samples.

Results

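The genes described here carry the electrical excitation of a muscle fiber and move the calcium that couples it to contraction. They were chosen by name, as the calcium pumps (ATP2A, ATP2B), sodium-potassium pump subunits (ATP1A, ATP1B), ryanodine receptors, voltage-gated calcium, sodium and potassium channels, calsequestrins, phospholamban, junctophilins, triadin, acetylcholine receptor subunits, calmodulins and their kinases, synaptophysin-like proteins, and the STIM and ORAI genes. The rule found 125 of the 21139 genes in the count table. They were measured in 4 Visium sections, in which printed spots under a tissue section capture the 3′ ends of polyadenylated RNA and each captured molecule is counted once through its unique molecular identifier (UMI). Each section was 1 condition and there were no replicates, so that no test of a condition was possible, and every interval given is a 95% interval that covers counting error only.

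All sections came from the posterior distal belly of the supraspinatus of skeletally mature female New Zealand White rabbits, 6 months old per the study's methods, whose muscles were pinned at length and frozen. The groups were fresh healthy muscle, healthy muscle kept frozen for 6 years (stored healthy), and muscle taken 2 weeks and 16 weeks after cutting of the supraspinatus tendon (tenotomy), both also kept for 6 years. Tenotomy models a rotator cuff tear. The stored healthy and the 16-week muscle carry the same number in the sample labels, with the letters R and L, which was read as right and left side of 1 animal. On this reading the stored healthy muscle is the side opposite the tenotomy, and any change of that side was not tested. The fresh healthy and the 2-week muscle each carry a number of their own. Storage, animal and fiber type mix could therefore not be told apart between the healthy sections, and the animal could not be told apart from tenotomy at 2 weeks.

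In skeletal muscle, acetylcholine opens receptors at the nerve-muscle junction, sodium channels carry the action potential into the transverse tubules, and the sodium-potassium pump restores the ion gradients. At the triad, the voltage sensor in the tubule opens the ryanodine receptor of the sarcoplasmic reticulum, where calsequestrin holds the stored calcium. SERCA pumps then return the calcium to the reticulum, and fast fibers use SERCA1 (ATP2A1) and calsequestrin 1 (CASQ1), whereas slow fibers use SERCA2 (ATP2A2), its inhibitor phospholamban (PLN) and more calsequestrin 2 (CASQ2).

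Levels are UMIs per 10000 UMIs of non-mitochondrial genes, because mitochondrial genes took 49.3% and 49.2% of all UMIs in the healthy sections (fresh, stored) but 33.8% and 34.6% after tenotomy (2 and 16 weeks). Spots under tissue numbered between 854 and 2440 per section, and total UMIs lay between 4079313 and 12536450. Fiber type was read from each spot as the share of MYH7 (slow myosin) in the sum of MYH7 and MYH1 (fast myosin) UMIs, in spots with at least 20 UMIs of both together, called muscle spots. Values of the 4 sections are given in the order fresh healthy, stored healthy, 2 weeks and 16 weeks unless stated otherwise. MYH7 made up 14.4%, 55.5%, 14.2% and 67.7% of this sum. MYH2, the myosin of type 2A fibers, was not analysed here, so those fibers were not scored. All 5 fast and all 8 slow muscle markers with an entry were detected in each section, so the sections fit their label as muscle. Muscle spots were 96.6% of spots at 2 weeks but 64.3% at 16 weeks, and levels over all spots there include regions with little muscle. In such spots fewer fibers and less RNA per fiber cannot be told apart. A spot can also fall under 20 myosin UMIs because few UMIs were captured there. The median UMIs per spot were 4588 at 2 weeks and 2090 at 16 weeks. In the 271 fresh healthy spots under the limit, fast muscle markers still summed to 641.2, against 840.7 in muscle spots. At 16 weeks these sums were 88.3 and 246.4.

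Of the 125 genes, 48 had no UMI in any section, 39 had between 1 and 49 UMIs over the 4 sections and 38 had 50 or more. Most of the undetected genes were ion channels, with 36 of 60 potassium channel genes and 5 of 15 voltage-gated calcium channel genes at 0. A count of 0 in the stored healthy section, the deepest, limits expression to 3 UMIs there. The 39 sparse genes held 526 of 395648 UMIs, the highest being CAMK2A with 47. The 5 most abundant genes, ATP2A1, CASQ1, RYR1, ATP2A2 and TRDN, held 82.1% of the UMIs. SLN (sarcolipin), PVALB (parvalbumin), STAC3, JPH2 (junctophilin 2), JSRP1 and CACNG1 were not analysed here.

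Together the 125 genes reached levels of 278.6, 214.7, 425.6 and 144.8, which is between 1.45% and 4.26% of non-mitochondrial UMIs. The 2-week section was the highest and the 16-week section the lowest, and ATP2A1 alone accounted for 233.1 and 29.3 of these levels.

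**Figure D1:**
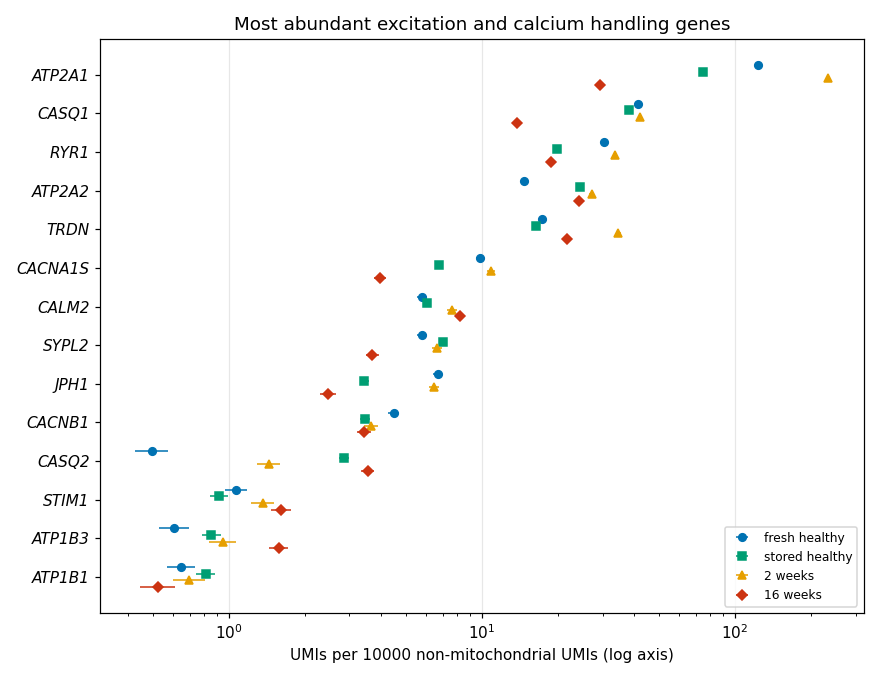
Level (UMIs per 10000 non-mitochondrial UMIs, log axis) of 14 of the genes with at least 1000 UMIs, in the 4 sections (1 section each). Points are levels over all spots and bars are exact Poisson 95% intervals. ATP2A1 spans from 29.3 at 16 weeks to 233.1 at 2 weeks, whereas ATP2A2 stays between 14.7 and 27.1.

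Among the calcium pumps of the sarcoplasmic reticulum, ATP2A1 had levels of 123.4, 74.9, 233.1 and 29.3. Its slow counterpart ATP2A2 had 14.7, 24.5, 27.1 and 24.2. ATP2A1 was highest at 2 weeks and lowest at 16 weeks, and ATP2A2 was lowest in the fresh healthy section. PLN was sparse, with 46, 100, 32 and 101 UMIs. ATP2A3, the SERCA form of vessels and blood cells, had 45, 110, 30 and 44 UMIs.

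At the triad, RYR1, the calcium release channel, had levels of 30.5, 19.8, 33.5 and 18.8. CACNA1S, the pore and voltage sensor of the tubule, had 9.83, 6.797, 10.9 and 3.97. JPH1, which ties the tubule to the reticulum, had 6.71, 3.43, 6.48 and 2.47. These 3 genes were higher in the fresh healthy and 2-week sections, where MYH7 was scarce, than in the other sections. TRDN, which anchors calsequestrin to the release channel, had 17.3, 16.3, 34.6 and 21.7, and thus followed another order. SYPL2 (mitsugumin 29, a triad membrane protein) had 5.82, 7.05, 6.65 and 3.69, and CACNB1, the beta subunit of the voltage sensor, stayed between 3.43 and 4.49. CACNA2D1, its alpha-2-delta subunit, had between 71 and 151 UMIs per section.

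Among calcium buffers and sensors, CASQ1 had levels of 41.3, 38.1, 42.2 and 13.8, and the 16-week section was the lowest. CASQ2 had 0.497, 2.86, 1.44 and 3.55. CALM2, which encodes calmodulin, had 5.80, 6.05, 7.63 and 8.20. CALM2 was thus highest at 16 weeks. For store-operated calcium entry, STIM1, the calcium sensor of the reticulum, had 1.07, 0.919, 1.36 and 1.61. ORAI1, the channel that STIM1 opens, had between 80 and 148 UMIs.

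Each comparison below counts genes at 2-fold or more among those with at least 50 UMIs over the groups compared, beside the share of all genes that did the same. Stored against fresh healthy muscle, which asks what long storage does to these transcripts, was measured for 32 of the 125 genes. CHRNA1 (log2 ratio 2.56, 89 against 8 UMIs) and CASQ2 (2.52, interval 2.30 to 2.75) were higher, 2 genes beside 7.94% of all 4335 genes. CHRNA9 (-1.65) and CACNA2D1 (-1.02) were among the lower genes, 3 genes beside 8.9% of all genes. Whether the feature named CHRNA9 counts its own transcripts or reads of a neighboring transcript was not tested, which bears on each of its values. ATP2A1 (-0.72), RYR1 (-0.62), CACNA1S (-0.53) and JPH1 (-0.97) were lower by less than 2-fold, and ATP2A2 was higher (0.74). These ratios over all spots compare sections of unlike fiber type (MYH7 share 55.5% stored, 14.4% fresh). Within the 3 bins of MYH7 share compared, RYR1 lay between -0.21 and -0.17, CACNA1S between -0.27 and 0.03 and JPH1 between -0.65 and -0.09. ATP2A2 was lower in 2 of 3 bins, with ratios between -0.78 and 0.21. The triad gene TRDN (-0.08) and CASQ1 (-0.12) differed little. SYPL2 (0.28), ATP1B1 (0.32), KCNMA1 (0.75), PLN (0.27) and KCNMB1 (0.85) lay above 0, and CACNB1 (-0.38), STIM1 (-0.22), SCN4A (-0.75) and CAMK2G (-0.92) below it, with intervals of PLN, KCNMB1 and SCN4A that include 0. CALM2 (0.06) was close to 0. The median of these 32 genes was -0.11 and that of all genes -0.09. With the bins of MYH7 share weighted equally, no gene was counted as 2-fold higher. CHRNA1 had fewer than 50 UMIs in each bin that could be compared, so its ratio at like fiber type was not measured. CASQ2 was higher in all 3 bins compared, with a log2 ratio of 1.55 in the lowest. In the stored and the fresh section, the regenerating and denervated fiber markers, which include CHRNA1, summed to 12.5 and 1.27. Most of these sums was ACTC1 alone (10.7 and 0.91), and CHRNA1 had 0.14 and 0.02. Connective tissue markers summed to 84.5 and 27.7, and macrophage markers to 3.59 and 0.83. The part of these markers in the ratios was not tested.

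At 2 weeks against stored healthy muscle, which asks what early unloading does, 33 genes were measured. ATP2A1 (log2 ratio 1.64, interval 1.62 to 1.65), CAMK2G (1.52), CHRNE (1.45), ATP2B1 (1.27) and TRDN (1.09, interval 1.05 to 1.13) were higher, 5 genes beside 9.49% of all 4256 genes. KCNN3 was lower (-1.31, 14 against 84 UMIs), 1 gene beside 3.41% of all genes. KCNN3 is a small-conductance calcium-activated potassium channel that reappears in denervated muscle. Below 2-fold, JPH1 (0.92), RYR1 (0.76), CACNA1S (0.68), STIM1 (0.57) and CALM2 (0.34) lay above 0, and CASQ2 (-0.99) and ATP2A3 (-0.62) below it. Within the 3 bins of MYH7 share compared, JPH1 lay between -0.03 and 0.57 and CACNA1S between 0.04 and 0.38. Against the median gene of the same bins, JPH1 lay between -0.26 and 0.33 and CACNA1S between -0.18 and 0.14. CASQ1 and ATP2A2 (0.15 each), CACNB1 (0.08) and SYPL2 (-0.08) were close to 0. For SCN4A (0.71), CHRNA1 (0.20), ATP1B1 (-0.22), PLN (-0.39) and CACNB3 (-0.48) the interval includes 0. The median of all genes was 0.21 and that of the 33 genes 0.29. The split of 5 higher and 1 lower became 13 and 0 when scaled to all UMIs, and 4 and 3 when scaled by the median gene.

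At 16 weeks against the stored healthy muscle with the same number in the labels, which asks what long unloading does, 34 genes were measured. CHRNE (log2 ratio 1.60), PLN (1.05) and CACNB3 (1.04) were among the higher genes, 4 genes (11.8% of the 34) beside 26.6% of all 4529 genes. CASQ1 (-1.46, interval -1.51 to -1.42) and ATP2A1 (-1.35, interval -1.39 to -1.32) were lower, as was CHRNA9, 3 genes beside 3.07% of all genes. SYPL2 (-0.93), CACNA1S (-0.78), ATP1B1 (-0.63) and JPH1 (-0.48) were lower by less than 2-fold. STIM1 (0.81), CHRNA1 (0.63), CALM2 (0.44), TRDN (0.41) and CASQ2 (0.31) were higher by less than 2-fold, as was KCNH2 (0.94, 29 against 31 UMIs). ATP2A2 (-0.02), CACNB1 (-0.01) and RYR1 (-0.08) were close to 0. The median of all genes was 0.53 in this comparison and that of the 34 genes 0.17. Scaled by the median gene, 2 genes were higher and 9 lower, and TRDN, CALM2 and CASQ2 lay below 0. Scaled to all UMIs, 8 were higher and 2 lower. In slow spots alone no gene with at least 50 UMIs reached 2-fold in either direction. CHRNE and CHRNA9 had fewer UMIs there and were not measured. In other bins of MYH7 share, ATP2A1 reached -1.29 and CASQ1 -1.45. The connective tissue markers summed to 128.1 at 16 weeks and 84.5 in the stored healthy section, macrophage markers to 6.77 and 3.59, and nerve and Schwann cell markers to 2.04 and 0.24. At 2 weeks connective tissue markers summed to 203.7. Their part in these ratios was not tested. Both tenotomy comparisons use the same stored healthy section.

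Within each section, levels were compared between slow and fast spots. Spots with a MYH7 share under 0.25 were called fast and those at 0.75 or more slow. The fresh healthy and 2-week sections had only 12 spots at 0.75 or more, so slow began at 0.5 there, which gave 97 and 52 slow spots. Spots of a section are not replicates, and each ratio describes that section.

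In the stored healthy section, 683 slow were compared with 567 fast spots over 25 genes. CASQ2 (log2 ratio 2.34), PLN (1.98, 58 against 9 UMIs), ATP2A2 (1.95) and ATP1B4 (1.07) were higher in slow spots, 4 genes beside 8.54% of all 2903 genes. ATP2A1 (-2.26), CHRNA9 (-2.43), JPH1 (-1.26) and RYR1 (-1.25) were among the lower genes, 6 genes beside 3.24% of all genes. CACNA1S (-0.92) and CASQ1 (-0.82) were lower by less than 2-fold, whereas TRDN (-0.27), SYPL2 (-0.18), CACNB1 (-0.34), ATP1B1 (-0.41), STIM1 (-0.06), CALM2 (0.04) and ATP2A3 (0.57) differed less. These slow spots also held more connective tissue markers (summed level 134.1 against 60.0). The regenerating and denervated fiber markers, among which CHRNA1 is a gene described here, were higher too (26.4 against 3.97). Most of that sum was ACTC1 alone (23.8 against 2.54). The part of these markers was not tested. With slow spots counted from 0.5, as in the fresh section, 2 genes in place of 6 were lower.

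At 16 weeks, 532 slow and 73 fast spots gave 17 genes. CASQ2 (2.35), PLN (2.31, 62 UMIs against 1), ATP2A2 (1.72) and ATP1B4 (1.26, 50 UMIs against 2) were higher in slow spots, 4 genes beside 7.25% of all 2180 genes, and the interval of ATP1B4 includes 0. ATP2A1 (-2.70) was among the lower genes, 2 genes beside 3.3% of all genes. RYR1 (-0.81), CACNA1S (-0.73), CASQ1 (-0.68), JPH1 (-0.65) and TRDN (-0.34) were lower by less than 2-fold. The intervals of CACNB1, SYPL2, STIM1, CALM2, ATP1B1 and ATP1B3 include 0. The regenerating and denervated fiber markers again stood higher in slow than fast spots (44.8 against 9.90), of which ACTC1 alone had 41.1 and 9.09. The part of these markers was not tested.

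In the fresh healthy section, 97 slow and 1334 fast spots gave 23 genes. ATP2A2 (2.71), CASQ2 (1.67) and ATP1B4 (1.27) were higher, 3 genes beside 4.12% of all 2671 genes, and CHRNA9 was lower (-1.63, 5 against 209 UMIs), 1 gene beside 4.72% of all genes. JPH1 (-0.89), ATP2A1 (-0.84), CACNA1S (-0.49), CASQ1 (-0.48) and RYR1 (-0.44) were lower and ATP1B1 (0.95) higher by less than 2-fold. The intervals of CAMK2G, CALM2, SYPL2, TRDN, CACNB1 and STIM1 include 0.

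At 2 weeks, 52 slow and 676 fast spots gave 22 genes. ATP2A2 (2.24), CASQ2 (1.71), ATP1B4 (1.40), ORAI1 (1.11) and ATP1B1 (1.07) were higher, 5 genes beside 6.37% of all 2575 genes. ATP2A1 (-1.62), CASQ1 (-1.06), CACNA2D1 (-1.04) and CHRNA9 were lower, 4 genes beside 5.24% of all genes. The intervals of ORAI1 (11 UMIs in slow spots) and CACNA2D1 (3 UMIs in slow spots) include 0. CHRNA9 had no UMI in the slow and 85 in the fast spots, and was at least 2.31-fold lower against a floor of 3 counts. JPH1 (-0.86), CACNA1S (-0.66) and RYR1 (-0.33) were lower by less than 2-fold, and TRDN (-0.04), SYPL2 (-0.09), CALM2 (0.03), STIM1 (-0.06) and CACNB1 (-0.30) had intervals that include 0. ATP2A2, CASQ2 and ATP1B4 were 2-fold or more higher in slow spots in all 4 sections, although for ATP1B4 at 16 weeks the interval includes 0.

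**Figure D2:**
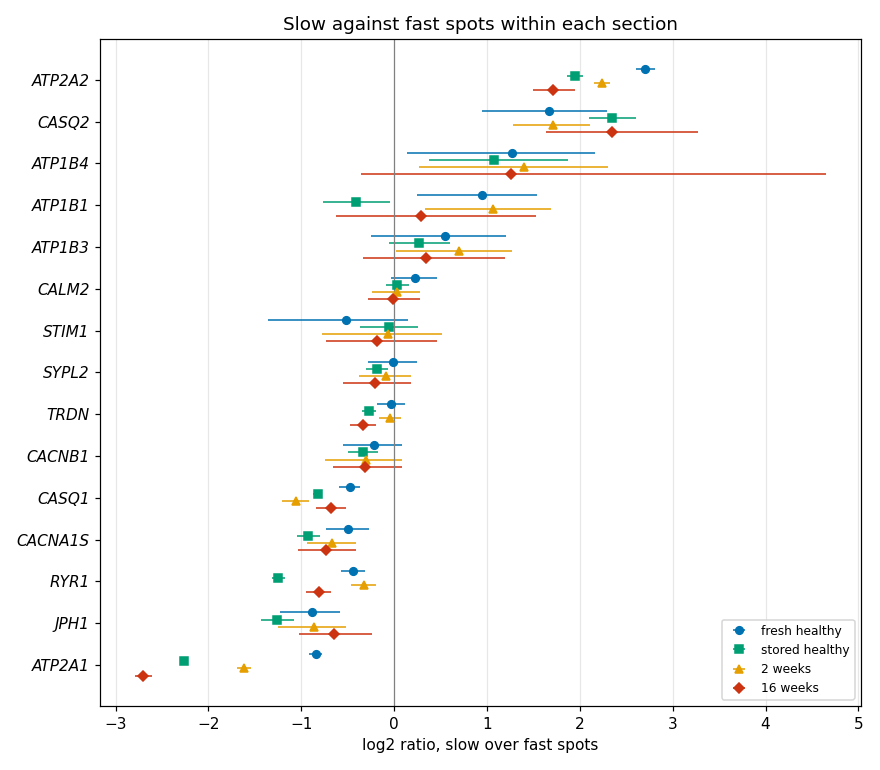
Log2 ratio of levels in slow over fast spots (x axis) for 15 genes, with a marker for each of the 4 sections (1 section each) where the gene had at least 50 UMIs. Bars are exact conditional 95% intervals. ATP2A2 lies between 1.72 and 2.71 and ATP2A1 between -2.70 and -0.84.

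The balance of the SERCA pumps followed the myosins within each section, but at like MYH7 share it also differed between sections. ATP2A1 made up 89.4%, 75.4%, 89.6% and 54.8% of ATP2A1 and ATP2A2 UMIs. This is a ratio within a section and does not depend on the scaling. In fast spots the share was 94.1%, 92.8%, 93.3% and 91.4%, a narrower range than over all spots. In spots with a MYH7 share of 0.25 to 0.5 it was 76.3%, 84.5%, 75.3% and 79.4%. From 0.5 to 0.75 it was 62.3%, 73.1%, 53.0% and 55.6%. The stored healthy section stood highest in each of these bins. At 0.75 or more it was 41.2% in the stored healthy section and 33.1% at 16 weeks, although MYH7 made up 95.8% and 86.9% there. Across spots with at least 10 UMIs of both pumps, the ATP2A1 share fell with the MYH7 share with Spearman's rho between -0.66 and -0.82 in the 4 sections (593 to 2165 spots, which share library and depth). CASQ1 made up 98.8%, 93.02%, 96.7% and 79.6% of calsequestrin UMIs. At a MYH7 share under 0.25 this share was 99.2%, 97.9%, 97.6% and 96.5%. From 0.25 to 0.5 it was 97.8%, 96.6%, 92.8% and 86.8%, and from 0.5 to 0.75 it was 96.6%, 94.7%, 87.1% and 78.9%, with both tenotomy sections below both healthy ones.

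Because the sections differed in fiber type, they were also compared within bins of MYH7 share (under 0.25, 0.25 to 0.5, 0.5 to 0.75, and 0.75 or more), leaving out bins under 20 spots. Bins are not fully alike: in the lowest bin MYH7 made up 7.76%, 15.1%, 8.78% and 16.2%, and in the highest bin 95.8% in the stored healthy section and 86.9% at 16 weeks.

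**Figure D3:**
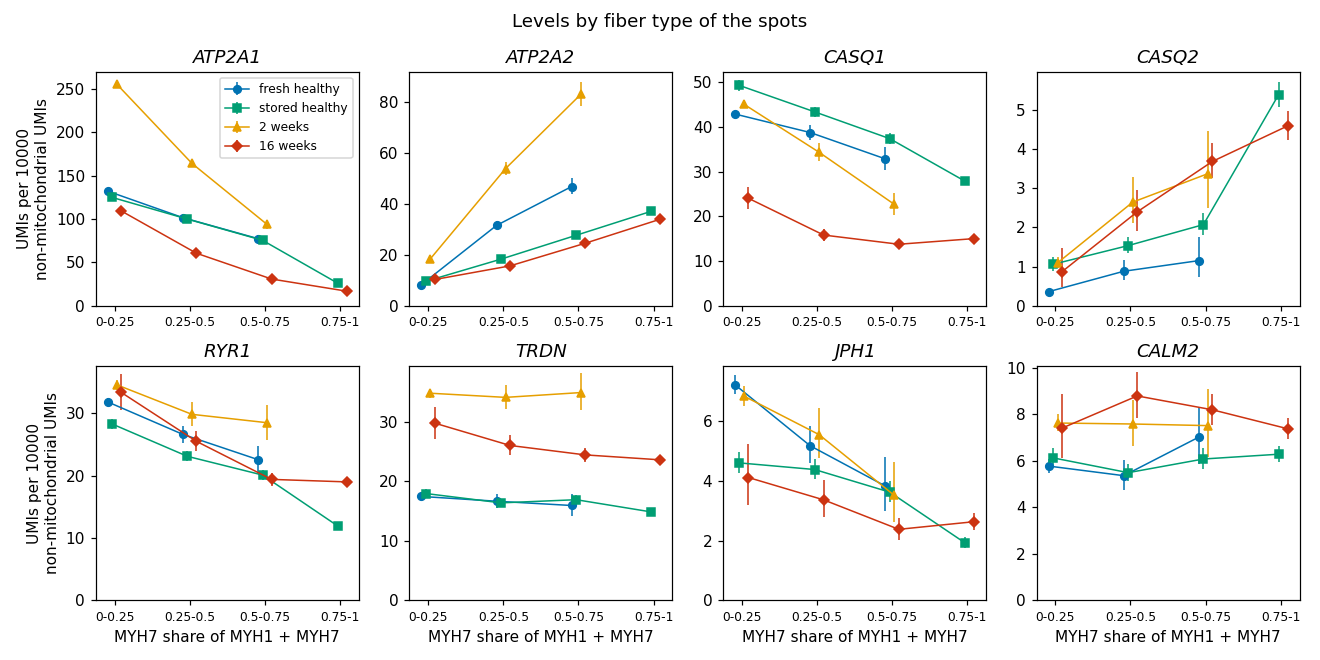
Level of 8 genes (y axis, UMIs per 10000 non-mitochondrial UMIs) in bins of the MYH7 share of MYH1 and MYH7 UMIs (x axis), in each section; bins under 20 spots are left out and bars are exact Poisson 95% intervals. TRDN stays between 34.1 and 34.9 at 2 weeks and between 14.8 and 17.9 in the stored healthy section, whereas ATP2A1 declines with the MYH7 share in all 4 sections.

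In the first 3 bins of rising MYH7 share, ATP2A1 had levels of 132.0, 101.5 and 77.3 in fresh and 124.8, 99.9 and 75.4 in stored healthy muscle. The healthy sections were thus nearly alike at like fiber type (log2 ratios of -0.08, -0.02 and -0.04), although the level over all spots was lower in the stored one. At 2 weeks the levels were 255.3, 164.0 and 93.7, above the stored healthy section by 1.03, 0.72 and 0.31 on the log2 scale. The ranges between the quartiles of single spots did not overlap in the first and second bins and overlapped in the next, where they ran from 71.6 to 119.7 at 2 weeks and from 58.7 to 89.4 in the stored healthy section. The quartiles in the lowest bin were 220.3 and 304.8 at 2 weeks, and 100.5 and 146.3 in the stored healthy section. At 16 weeks the levels in the 4 bins were 109.2, 60.5, 30.8 and 16.8, against 26.0 in the highest bin of the stored healthy section. The log2 ratios at 16 weeks were -0.19, -0.72, -1.29 and -0.63, below 0 in 4 of 4 bins. Against the median gene of the same bins, ATP2A1 lay between 0.09 and 0.80 at 2 weeks and between -1.70 and -0.40 at 16 weeks.

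Fast spots of the 2-week section also carried MYH4 (type 2B myosin). It was 7.33% of the MYH1, MYH4 and MYH7 UMIs there and 0.33% in fast spots of the stored healthy section. The fast spots at 2 weeks were also grouped by the share of MYH4 in MYH1 and MYH4 UMIs. In the 102 spots under 2%, the level of ATP2A1 was 212.5, and in the 163 spots with 10% or more it was 278.8. TRDN was at 35.8 and 37.4 in these spots. The stored healthy level of ATP2A1 in fast spots was 124.8, and the part of MYH4 in the difference was not tested. In fast spots, MYH1 was at 781.0 at 2 weeks and 374.4 in the stored healthy section, and ACTN3 at 51.7 and 26.8. The fast muscle markers MYL1 (339.9 and 328.7) and ENO3 (144.5 and 154.6) differed less. The part of these markers was not tested either.

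ATP2A2 gave a different picture at like fiber type than over all spots. At 2 weeks it had 18.5, 53.9 and 83.0 in the first 3 bins, against 9.62, 18.3 and 27.7 in the stored healthy section, a log2 ratio of 0.94, 1.56 and 1.58. Over all spots the ratio was 0.15. The fresh healthy section, with 8.29, 31.6 and 46.8, also lay above the stored healthy section in the second bin and the one after it. At 16 weeks the ratio to the stored healthy section stayed between -0.22 and 0.11 in the 4 bins. CASQ2 turned likewise. It was lower at 2 weeks over all spots (-0.99) but had ratios of 0.05, 0.79 and 0.71 at like fiber type, of which the first has an interval that includes 0. CASQ2 was higher in the stored than in the fresh healthy section in all 3 bins (1.55, 0.79 and 0.82). Against the median gene of the same bins, ATP2A2 lay between 0.70 and 1.36 at 2 weeks and between -0.60 and -0.10 at 16 weeks. CASQ2 lay between -0.19 and 0.55 at 2 weeks on this scale.

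TRDN varied little with fiber type in the fresh healthy and 2-week sections, and was lower in slow than in fast spots in the other sections. After tenotomy it was higher than in the stored healthy section in each bin. In the first 3 bins its level was 17.4, 16.6 and 15.9 in fresh and 17.9, 16.4 and 16.9 in stored healthy muscle, and 34.8, 34.1 and 34.9 at 2 weeks. The 2-week section was therefore higher by 0.96 to 1.06 on the log2 scale in 3 of 3 bins, whereas the intervals of stored against fresh healthy muscle include 0 in each. At 16 weeks the 4 bins had 29.8, 26.0, 24.4 and 23.6, higher than the stored healthy section by 0.53 to 0.73 in 4 of 4 bins. In the 617 spots of the 16-week section with little muscle the level was 7.13, and the ratio over all its spots was 0.41. Relative to the median gene of the same bins, which was 0.22 to 0.24 higher at 2 weeks and 0.21 to 0.41 higher at 16 weeks, TRDN stayed above by 0.72 to 0.82 and by 0.12 to 0.52.

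CASQ1 lay below the stored healthy section at like fiber type after tenotomy. In the 4 bins of the stored healthy section its level was 49.3, 43.4, 37.4 and 27.9, and at 16 weeks 24.0, 15.8, 13.8 and 15.0, a log2 ratio of -1.03, -1.45, -1.44 and -0.89. At 2 weeks the first 3 bins had 45.0, 34.3 and 22.7, a ratio of -0.13, -0.34 and -0.72, although the ratio over all spots was 0.15. The fresh healthy section had 42.9, 38.7 and 32.8 in these bins. SYPL2 was also lower at 16 weeks in 4 of 4 bins, with log2 ratios between -0.91 and -0.66. CACNA1S was lower in 4 of 4 bins, with ratios between -0.76 and -0.21. The stored healthy section itself lay above the fresh one for SYPL2 in 3 of 3 bins, with ratios between 0.30 and 0.44.

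RYR1 differed from CASQ1 at 16 weeks. Its ratios to the stored healthy section were 0.24, 0.14, -0.05 and 0.67, the last from a level of 19.0 against 11.9 in slow spots. At 2 weeks RYR1 had ratios of 0.29, 0.37 and 0.51. JPH1 at 16 weeks was lower in the first 3 bins (-0.15, with an interval that includes 0, -0.38 and -0.61) and higher in the last (0.45). STIM1 was higher at 16 weeks in 4 of 4 bins, with ratios between 0.66 and 1.16, and at 2 weeks in 3 of 3, between 0.42 and 1.01. CALM2 was higher at 16 weeks in 4 of 4 bins, between 0.23 and 0.68, and the interval of the first includes 0. Against the median gene of the same bins at 16 weeks, CALM2 lay between -0.01 and 0.31 and RYR1 between -0.46 and 0.43. JPH1 lay between -1.02 and 0.21 and STIM1 between 0.41 and 0.75 on this scale. For 2 weeks the ranges were 0.05 to 0.28 for RYR1 and 0.18 to 0.78 for STIM1.

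**Figure D4:**
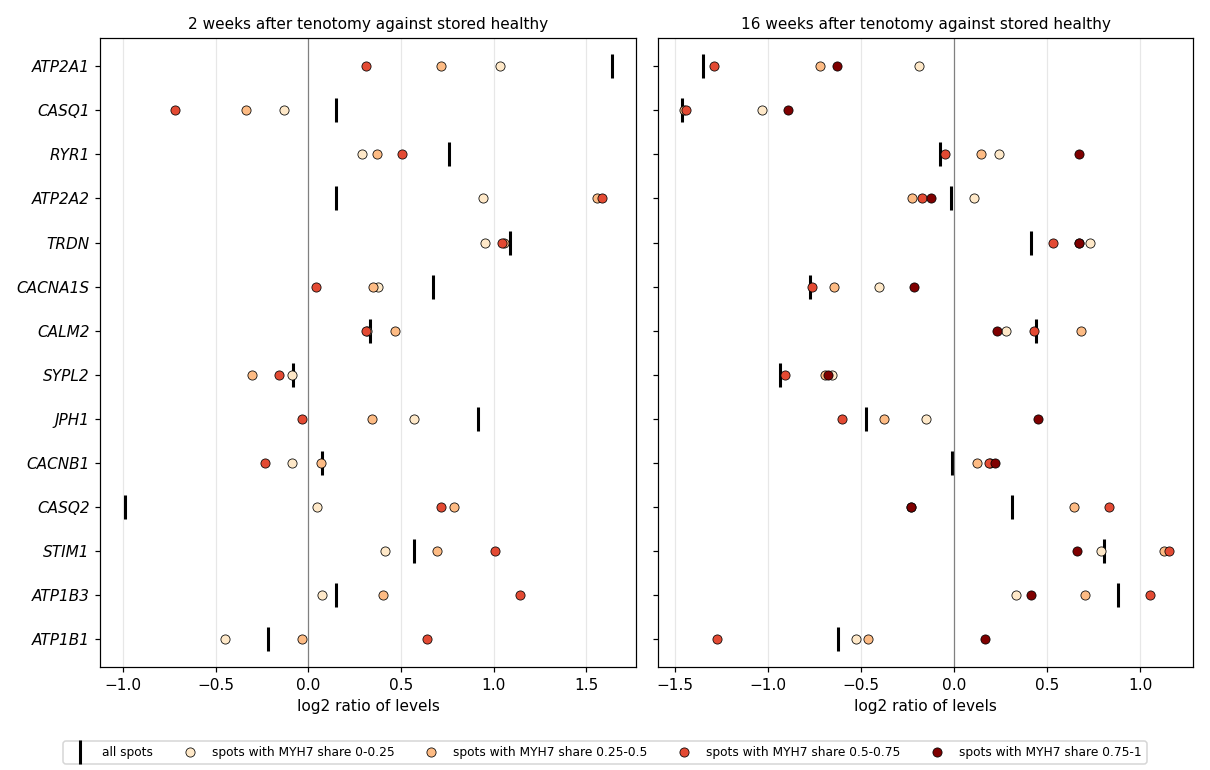
Log2 ratio of levels at 2 weeks (left) and 16 weeks (right) over the stored healthy section for 14 of the genes with at least 1000 UMIs. Vertical marks are ratios over all spots and circles are ratios within bins of MYH7 share of at least 20 spots in both sections. CASQ1 at 2 weeks has its mark at 0.15 and its circles between -0.72 and -0.13.

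The acetylcholine receptor subunits were rare. CHRNA1, the acetylcholine-binding subunit of muscle, had 8, 89, 43 and 67 UMIs. CHRNE, the subunit of adult junctions, had 14, 31, 36 and 46 UMIs, never more than 2 in a spot. CHRNB1 had between 9 and 28 UMIs. In the stored healthy section 19 of the 89 CHRNA1 UMIs lay in the 30 spots with CHRNE, where its level was 1.72 against 0.11 in the other spots. Such an overlap, chosen for description after its values were seen, was found in 8 of these 30 spots. In the fresh healthy section it was found in 0 of 13 spots with CHRNE, and at 2 weeks in 3 of 35, where the CHRNA1 level was 0.43 against 0.15. At 16 weeks it was found in 3 of 45, where the level was 0.43 against 0.21. CHRNG and CHRND, further subunits of the muscle receptor, are not among the 125 genes.

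CHRNA9, known from the sensory hair cells of the ear, had 240, 137, 94 and 1 UMIs. The fresh healthy section had most and the 16-week section almost none, a log2 ratio to the stored healthy section of -5.48 with an interval from -11.4 to -3.56. In the single bin that could be compared at like fiber type, a MYH7 share under 0.25, the ratio was -2.01 (interval -7.91 to -0.04), from 1 UMI in 73 spots against 53 UMIs in 567. It followed the fast spots, with levels of 0.768 in fast and 0.225 in slow spots of the fresh healthy section and of 0.371 and 0.0675 in the stored one. It lay in 214, 131, 79 and 1 spots, with at most 4 UMIs in any spot.

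The beta subunits of the sodium-potassium pump bring it to the membrane. ATP1B1, ATP1B3 and the related ATP1B4 had between 71 and 544 UMIs per section, and ATP1B4 was higher in slow spots in each section. SCN4A, the sodium channel of the muscle action potential, had 30, 32, 22 and 17 UMIs, too few to show a difference at this depth.

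Other genes of excitation and calcium handling that the name rule left out were taken from a list of 32 with an entry. Against the fresh healthy section, 20 of them were measured in the stored one, of which S100A1 was higher (1.16), 1 gene beside 7.94% of all genes. PPP3CB (-1.02), HOMER1 (-1.05) and PPP3R1 (-1.97) were among the lower genes, 4 genes beside 8.9%. At 2 weeks 3 of 20 were higher, beside 9.49% of all genes, MCUB of the mitochondrial calcium uniporter (1.29) and the calcineurin subunits PPP3R1 (1.16) and PPP3CA (1.02). S100A1, a calcium sensor that binds the release channel and SERCA, was lower (-2.36), as was RCAN2 (-1.33), beside 3.41% of all genes. At 16 weeks AKAP6 (2.29), MCUB (1.34) and CALU (1.33) were higher, 3 of 21 beside 26.6% of all genes, a smaller share than over all genes, and RCAN2 was lower (-1.10), beside 3.07%. S100A1 was higher in slow than in fast spots in all 4 sections, by 1.09 to 2.16, and at like fiber type its ratio at 2 weeks was -1.27, -1.36 and -0.58.

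The 16-week section held 617 spots with fewer than 20 myosin UMIs, called muscle-poor, and 1109 muscle spots. The comparison was added after the data were seen. Over 25 genes, 14 were lower in muscle-poor spots, beside 7.75% of all 3304 genes, and 2 were higher, CACNB3 (1.55) and ATP1B3 (1.15), beside 19.9% of all genes. All 7 measured triad genes were among the lower ones: TRDN (-1.78), CACNA2D1 (-1.57), SYPL2 (-1.49), JPH1 (-1.43), RYR1 (-1.38), CACNA1S (-1.11) and CACNB1 (-1.06). ATP2A2 (-1.77) was lower, as were ATP2A1 (-1.31), CASQ1 (-1.32) and PLN (-1.54, 6 UMIs in muscle-poor spots). CAMK2G, a calmodulin kinase, had 3 UMIs there (-1.52). ATP1B1 had 5 UMIs there and a ratio of -2.52, while ATP1B4 also had 5 (-1.71). CALM2 (0.39), which all cells use, was higher and CASQ2 (-0.75) lower by less than 2-fold. STIM1 (-0.09) and CHRNA1 (0.04) had intervals that include 0. In these spots the connective tissue markers summed to 315.6 against 90.9 in muscle spots. The rule for these spots used MYH1 and MYH7, so a lower level of genes of the muscle fiber there goes with the choice of spots.

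**Figure D5:**
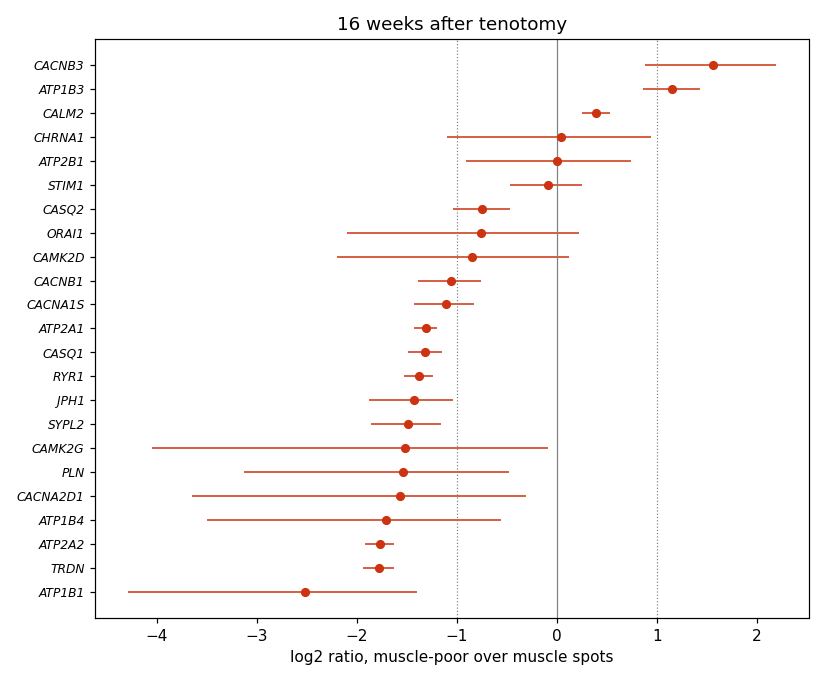
Log2 ratio of levels in the 617 muscle-poor over the 1109 muscle spots of the 16-week section (x axis) for 23 of the genes with at least 50 UMIs. Points are ratios, bars are exact conditional 95% intervals and dotted lines mark 2-fold. CACNB3 and ATP1B3 lie above 1, and TRDN (-1.78), ATP2A2 (-1.77) and ATP1B1 (-2.52) lie lowest.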

How the data were processed

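UMIs per gene and spot were counted by the authors with Space Ranger 1.2.0 against OryCun2.0 and Ensembl release 104, and these counts were deposited for spots under tissue without normalization. All spots were used. A spot covers several cells, so doublets were not called. The 37 mitochondrial genes were left out of the scaling. Of 2931 spot barcodes, 2118 occur in 2 or more sections, since barcodes mark positions on the slide. UMIs were summed per group of spots, with exact Poisson intervals for levels, exact Clopper-Pearson intervals for shares and exact conditional intervals for log2 ratios (0.5 UMI added). No test was run. Some genes counted among the 125 are not reported here by name. Every comparison names the 20 listed genes that have an entry and reach 50 UMIs, and the 5 highest and 5 lowest ratios. CAMK2G in muscle-poor spots, S100A1 within bins, the MYH4 groups and the spots with CHRNE were chosen after their values were seen. The genes, lists and rules were chosen with earlier results of these data known. The slow limit of 0.5, the muscle-poor comparison and the comparisons of fast or slow spots alone between sections were added later, with the data in view. Alternatives changed the scaling, UMI minimum, fold, spot filters and fiber type limits. Software was Python 3.11.15 with numpy 2.4.6, scipy 1.17.1, pandas 2.3.3 and matplotlib 3.10.9, and the ratios were tested on simulated data. Depth was 4079313 to 12536450 UMIs per section, and intervals cover counting error only.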

Additional observations from a re-analysis of the deposited data

Results flagged for a closer look

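ATP2A1 moved in opposite directions in the tenotomy sections, with a log2 ratio to the stored healthy section of 1.64 at 2 weeks and -1.35 at 16 weeks. These ratios are over all spots, and the sections differ in fiber type mix. Within bins of MYH7 share the ratio lay between 0.31 and 1.03 at 2 weeks and between -1.29 and -0.19 at 16 weeks. The difference between the sections was not tested, since each condition has 1 section, and all of these ratios use the same stored healthy section.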

How the results depend on the processing

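Of 972 values of named genes recomputed under the alternatives, 731 stayed within their counting interval and 241 moved, and no gene at 2-fold or more changed sign. Counts of genes at 2-fold or more moved as follows, the cause not being tested. For stored against fresh healthy muscle, the higher genes (2) became 5 with a minimum of 20 UMIs, 1 with 200, 6 at 1.5-fold, 0 with MYH7 bins weighted equally and 1 in fast spots, and the lower genes (3) became 1 scaled by the median gene, 11 at 1.5-fold and 1 in fast spots. At 2 weeks, the higher genes (5) became 13 scaled to all UMIs, 4 scaled by the median gene and 3 with 200 UMIs. Their count became 13 at 1.5-fold, 9 with equal bins and 2 in fast spots. The lower gene (1) became 0, 3, 2, 0 and 4 with all UMIs, the median gene, 20 UMIs, 200 UMIs and 1.5-fold. That count became 2 in muscle spots or without the richest spot. At 16 weeks, the higher genes (4) became 8 with all UMIs, 2 with the median gene, 7 with 20 UMIs, 1 with 200, 10 at 1.5-fold and 0 in fast or slow spots alone, and the lower genes (3) became 9, 8 and 0 with the median gene, 1.5-fold and slow spots alone. For slow against fast spots, the fresh healthy counts (3 and 1) became 1 higher with 200 UMIs, and 5 and 4 at 1.5-fold. The stored healthy counts (4 and 6) became 7 higher with 20 UMIs, 2 with 200 and 2 without spots holding COL1A1, CD74 or SPP1, and 2 lower with slow from 0.5. The 2-week counts (5 and 4) became 3 higher with all UMIs or the median gene, 9 with 20 UMIs and 2 with 200, and 2 and 7 lower with 200 UMIs and 1.5-fold. The 16-week counts (4 and 2) became 7 higher with 20 UMIs, 2 with 200 and 2 without those spots, and 5 and 6 lower with 20 UMIs and 1.5-fold. The ATP2A1 and CASQ1 shares stayed within their binomial intervals in muscle spots alone and in spots with at least 500 UMIs. Fast below 0.1 against slow from 0.9 left under 20 spots in the fresh healthy and 2-week sections and gave no value. No paired analysis was possible because each condition has 1 section. With 1 section per condition, no replicate could be left out, and intervals cover neither animals nor sections.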
